A study of Mus musculus with 6 samples.

Results

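The 7 genes described here encode the type II receptors of the TGF-beta family (Bmpr2, Acvr2a, Acvr2b, Tgfbr2 and Amhr2) and a pair of its coreceptors (Tgfbr3, or betaglycan, and Eng, or endoglin). They were chosen by symbol, as a named family, from the 35415 genes of a count table, in which all 7 were present, and all 7 were among the 16841 genes expressed highly enough to be tested. The table came from bulk RNA sequencing of whole ovaries collected at estrus from 3-month-old mice. Of the 6 libraries, 3 came from Rnf111+/- mice and 3 from wild-type mice, each from a separate mouse by its label. The heterozygous mice carry a CRISPR-Cas9 edited allele of Rnf111, the gene of the ubiquitin ligase Arkadia, and were made to study variants that damage 1 copy of RNF111 in premature ovarian insufficiency; the labels name no other allele and no treatment in either group, and which of the 2 edited lines was sequenced is not given in the sources used here. Levels are given in CPM, the depth-normalised count unit, which divides each count by the size of its library, after TMM scaling, which evens out differences in library make-up.

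Ligands of the TGF-beta family signal through a complex of type II and type I receptors, in which the type II receptor, an always active kinase, phosphorylates the type I receptor, which in turn phosphorylates SMAD proteins. BMPR2 binds bone morphogenetic proteins (BMPs) and the oocyte factors GDF9 and BMP15, the activin receptors ACVR2A and ACVR2B bind activins and several BMPs, TGFBR2 binds TGF-beta, and AMHR2 binds anti-Müllerian hormone (AMH), which granulosa cells of growing follicles secrete and which restrains the recruitment of primordial follicles. Betaglycan presents TGF-beta2 to its receptor and lets inhibin compete with activin, and endoglin acts mainly in endothelial cells, together with the type I receptor ALK1, the product of Acvrl1. Arkadia marks inhibitors of the same pathway, among them SMAD7, SKI and SnoN, for degradation.

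The promoters of 4 of the 7 genes are shown first: Bmpr2, Acvr2a and Acvr2b, whose values did not overlap between the genotypes, and Amhr2, whose expression in the ovary is largely restricted to granulosa cells. Each run is the 250 bases before the gene's start in RefSeq, 5′ to 3′ on the gene's own strand, in build GRCm38.p6 (chr1:59764029-59764278, chr2:48813859-48814108, chr9:119401928-119402177 and chr15:102445117-102445366, all on the plus strand). Capitals mark matches, on either strand, to AAGGTCA (the half-site bound by the steroidogenic factors of the NR5A family), CAGAC (a SMAD binding word) and GGGCGG (the GC box).
Bmpr2: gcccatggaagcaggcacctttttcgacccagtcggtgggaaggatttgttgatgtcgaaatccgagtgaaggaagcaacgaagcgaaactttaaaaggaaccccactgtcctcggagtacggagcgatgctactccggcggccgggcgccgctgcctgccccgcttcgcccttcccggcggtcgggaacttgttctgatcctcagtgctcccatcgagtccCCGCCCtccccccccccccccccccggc
Acvr2a: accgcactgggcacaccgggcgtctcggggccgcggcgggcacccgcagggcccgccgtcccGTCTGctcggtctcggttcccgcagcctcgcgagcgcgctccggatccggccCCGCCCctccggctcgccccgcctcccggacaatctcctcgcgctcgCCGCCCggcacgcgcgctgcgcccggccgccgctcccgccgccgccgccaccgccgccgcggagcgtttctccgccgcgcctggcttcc
Acvr2b: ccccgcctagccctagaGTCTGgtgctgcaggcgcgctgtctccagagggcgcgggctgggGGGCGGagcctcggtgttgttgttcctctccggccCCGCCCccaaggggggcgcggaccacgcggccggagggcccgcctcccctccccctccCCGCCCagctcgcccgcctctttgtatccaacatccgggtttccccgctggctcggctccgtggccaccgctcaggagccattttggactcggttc
Amhr2: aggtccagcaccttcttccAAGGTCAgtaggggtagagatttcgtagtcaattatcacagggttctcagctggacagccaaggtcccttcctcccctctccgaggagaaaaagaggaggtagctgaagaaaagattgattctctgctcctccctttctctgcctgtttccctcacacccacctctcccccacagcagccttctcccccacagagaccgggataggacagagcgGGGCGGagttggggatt

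The Amhr2 window held the only AAGGTCA match among the 6 members with a RefSeq window, 231 bases before the start, and this word was found in 4.08% of all 32851 windows of the same length. GC boxes were in the windows of Bmpr2 (1 match), Acvr2a (2), Acvr2b (3) and Amhr2 (1), against 32.7% of all windows. The SMAD word was in those of Acvr2a, Acvr2b, Tgfbr2 (1 match each) and Eng (2 matches), against 42.2% of all windows, and no marked matches overlapped. The GC content was 64.0% for Bmpr2, 82.0% for Acvr2a, 72.8% for Acvr2b and 55.2% for Amhr2, against a median of 52.4% over all windows. These matches describe the letters of the windows and are not sites of binding. For Tgfbr3 no window was used. By the GENCODE M21 annotation, Bmpr2 is on chromosome 1, Acvr2a and Eng on chromosome 2, Tgfbr3 on chromosome 5, Acvr2b and Tgfbr2 on chromosome 9, as is Rnf111, and Amhr2 on chromosome 15.

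The libraries held between 38261449 and 39474515 counts, and the 7 genes together took 0.12 to 0.145% of the counts in Rnf111+/- libraries and 0.0956 to 0.104% in wild-type libraries. Bmpr2 gave the most of these, with 11330 to 33578 counts per library, against 6880 to 8103 for Amhr2, the next. The gap in the totals is therefore mainly that of Bmpr2, which edgeR did not call, and is not a rise of all 7 genes. Rnf111 itself had 44.6 ± 0.394 CPM in Rnf111+/- ovaries and 53.9 ± 0.477 CPM in wild-type ovaries (SD, n = 3 each), a log2 fold change of -0.27 ± 0.07 (SE) called by edgeR at an adjusted p of 0.04 and not called when any 1 library other than wild-type replicate 3 was left out. Markers of the oocyte, granulosa cells, theca, corpus luteum and endothelium were all detected. Wild-type replicate 3 stood apart. On the second principal component, which held 23.5% of the variance, the Rnf111+/- libraries lay between 2.07 and 2.80, wild-type replicate 3 at -33.6 and the other wild-type libraries at 14.3 and 12.1. The summed level of 6 oviduct epithelium markers was 21.2 to 24.4 CPM in Rnf111+/- libraries, 193 CPM in wild-type replicate 3, and 8.95 and 16.3 CPM in the other wild-type libraries. Of these markers, Ovgp1 alone had 146 CPM in wild-type replicate 3. Most of the Rnf111+/- sums came from Tppp3, at 17.4, 13.6 and 17.6 CPM in replicates 1, 2 and 3. Tppp3 had 6.24, 7.88 and 17.3 CPM in wild-type replicates 1, 2 and 3, so it was not raised in wild-type replicate 3 above the Rnf111+/- libraries. Because wild-type replicate 3 stood apart, the fold changes of the 7 genes, and the ratios and shares made from them, are also given without it.

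None of the 7 genes was called as different between the genotypes: 0 passed edgeR's test at an adjusted p under 0.05, where 9.64% of all tested genes were called (3.9% higher and 5.74% lower in Rnf111+/- ovaries). Unadjusted, 2 of the 7 (Bmpr2 and Acvr2b) had p under 0.05. Bmpr2, the type II receptor with the most counts, had the largest fold change of the 7, and it passed with DESeq2, with limma-voom and without wild-type replicate 3. Values of Bmpr2, Acvr2a and Acvr2b were higher in every Rnf111+/- library than in every wild-type library, while those of Tgfbr2, Amhr2, Tgfbr3 and Eng overlapped. Such separation towards higher values was found for 15.1% of all tested genes, towards lower values for 16.9%, and in either direction for 32%. The median log2 fold change was 0.06 over the 7 genes, with 4 above and 3 below 0, and -0.008 over all tested genes.

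**Figure D1:**
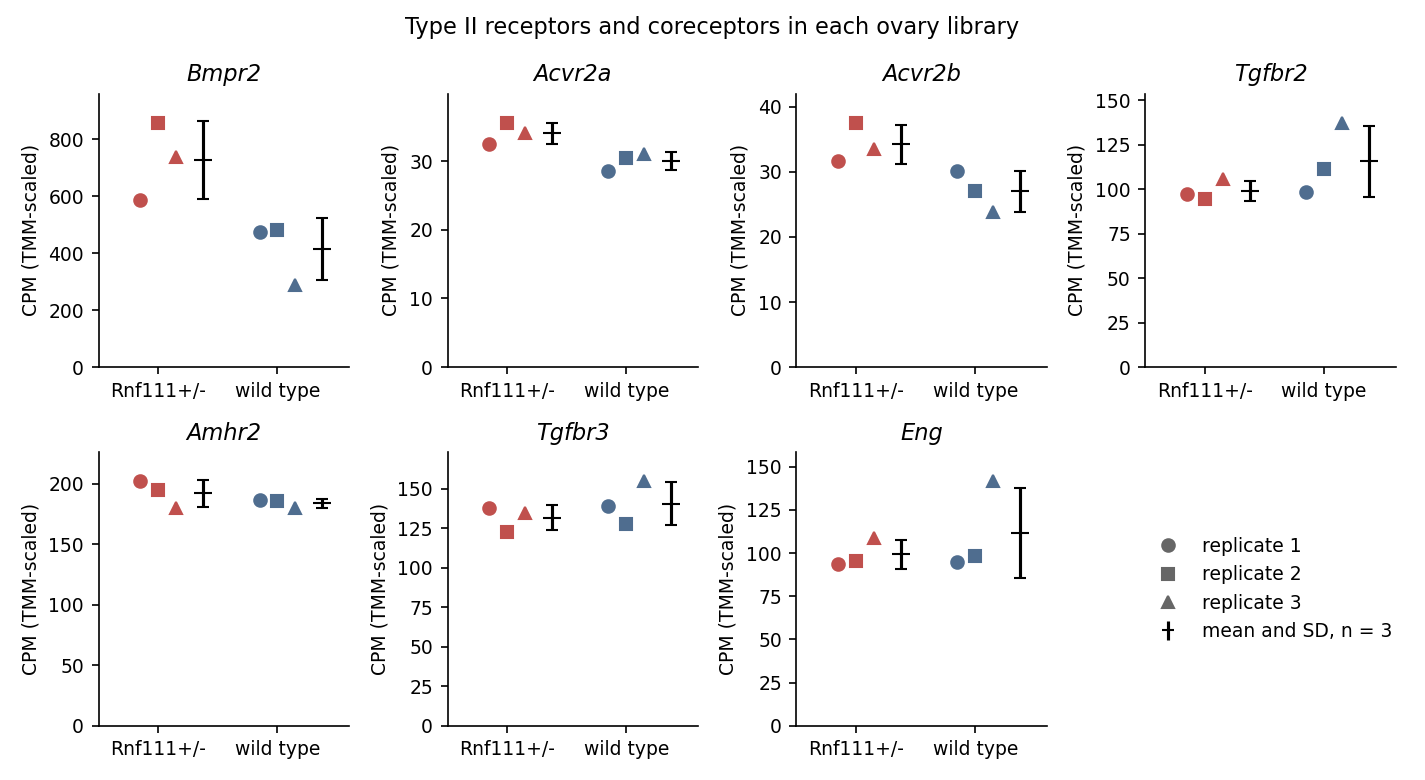
Level of each of the 7 genes (CPM, vertical axis from 0) in each Rnf111+/- and wild-type library, with marker shape for the replicate number and the black bar for mean and SD (n = 3). Bmpr2, Acvr2a and Acvr2b have no overlap between the genotypes, while wild-type replicate 3 is the highest library for Tgfbr2 (137 CPM), Tgfbr3 (155 CPM) and Eng (142 CPM) and the lowest for Bmpr2 (289 CPM) and Acvr2b (23.9 CPM).

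Bmpr2 had 23533, 33578 and 28232 counts in Rnf111+/- replicates 1, 2 and 3, against 18122, 18510 and 11330 counts in wild-type replicates 1, 2 and 3. Scaled, these were 586, 858 and 737 CPM in Rnf111+/- libraries and 473, 479.7 and 289 CPM in wild-type libraries. The lowest Rnf111+/- library lay above the highest wild-type library, the Rnf111+/- values were spread widely, and wild-type replicate 3 was well below the other wild-type libraries. The mean was 727 ± 136 CPM in Rnf111+/- ovaries and 414 ± 108 CPM in wild-type ovaries (SD, n = 3 each). The fitted fold was 1.76 (log2 0.81 ± 0.23 SE), with an interval of 2 standard errors that put the Rnf111+/- level between 128% and 240.5% of the wild-type level. The adjusted p was 0.0767, and 2181 other genes had a smaller p.

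The coefficient of variation of Bmpr2 between mice was 18.7% among Rnf111+/- libraries and 26.1% among wild-type libraries, the highest of the 7 genes in both genotypes. Without wild-type replicate 3 the log2 fold change was 0.62 ± 0.15 (adjusted p = 0.0393), in a fit that called 16.2% of genes. With all libraries it passed with DESeq2 (0.82 ± 0.19, adjusted p = 0.000532, where 13.4% of genes were called) and with limma-voom (0.83 ± 0.21, adjusted p = 0.0453, 9.46% called). Leaving out any 1 of the other 5 libraries gave log2 values between 0.69 and 0.95 with adjusted p between 0.0809 and 0.211, and over all 13 alternatives the adjusted p ranged between 0.000532 and 0.222. Over all tested genes, edgeR called 3.9% higher and 5.74% lower. The summed level of 10 granulosa markers, of which 3 rose (1 without Rnf111+/- replicate 2) and none fell, was 5202, 6522 and 5340 CPM in Rnf111+/- replicates 1, 2 and 3 and 4361, 4105 and 2418 CPM in wild-type replicates 1, 2 and 3, with none of the 10 at 0. The highest and the lowest library of that sum were those of Bmpr2 as well, and its part in the Bmpr2 values was not tested. The largest part of that sum came from Gja1, at 2791, 3650 and 2996 CPM in Rnf111+/- replicates 1, 2 and 3. In wild-type replicates 1, 2 and 3 Gja1 had 2227, 2005 and 1061 CPM. Hsd17b1, Nr5a2, Esr2 and Greb1 shared its highest and lowest library, while Foxl2, Fshr, Cyp19a1, Nr0b1 and Kitl did not share both. In whole ovaries, fewer cells of a type and less RNA per cell cannot be told apart.

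**Figure D2:**
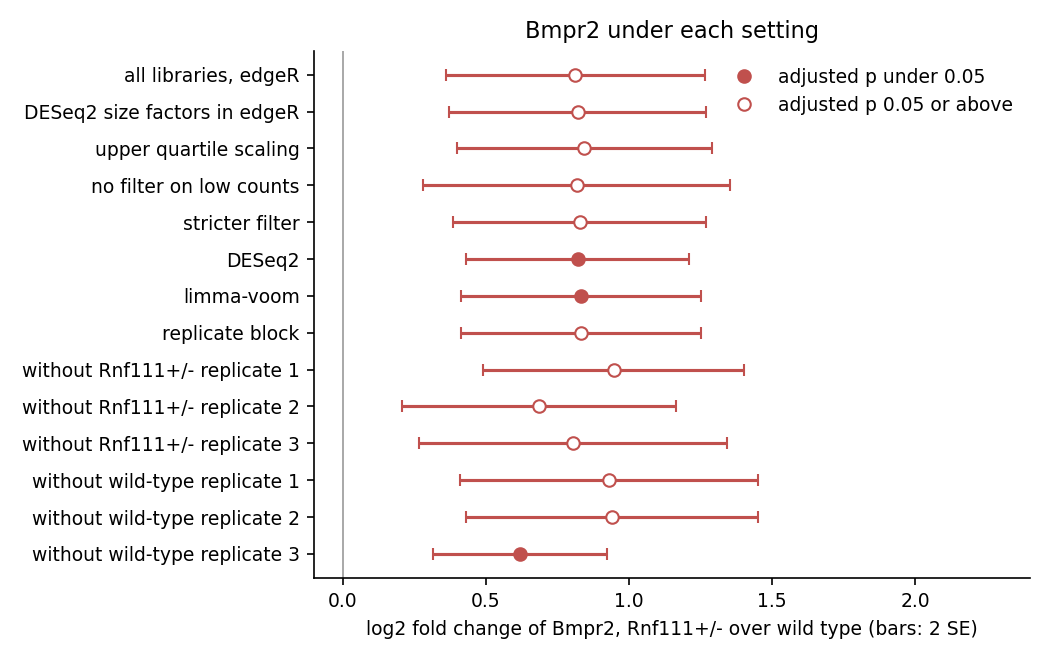
Log2 fold change of Bmpr2 (horizontal axis, Rnf111+/- over wild type) with all libraries in edgeR and under each of 13 alternatives, with bars of 2 SE and filled points where the adjusted p was under 0.05. The value is above 0 in every setting shown, between 0.62 and 0.95, and 3 points are filled.

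The activin receptor genes were expressed at lower levels. Acvr2b had 31.7, 37.5 and 33.4 CPM in Rnf111+/- replicates 1, 2 and 3, against 30.1, 27.1 and 23.9 CPM in wild-type replicates 1, 2 and 3. The gap between the groups was narrow, 31.7 CPM in the lowest Rnf111+/- library against 30.1 CPM in the highest wild-type library. The means were 34.2 ± 2.98 and 27.0 ± 3.12 CPM in Rnf111+/- and wild-type ovaries (SD, n = 3 each), and the log2 fold change was 0.34 ± 0.11 (SE, adjusted p = 0.101), with an interval of 2 SE between 108% and 148% of the wild-type level. Its log2 value was 0.27 ± 0.11 without wild-type replicate 3 (adjusted p = 0.113), and no alternative called it (adjusted p between 0.0602 and 0.295).

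Acvr2a, the paralog of Acvr2b, had 32.4, 35.6 and 34.1 CPM in Rnf111+/- replicates 1, 2 and 3, against 28.6, 30.5 and 31.1 CPM in wild-type replicates 1, 2 and 3. Replicate spread was small in both groups, and the groups were separated by little more than 1 CPM. The means were 34.0 ± 1.57 CPM in Rnf111+/- ovaries and 30.1 ± 1.28 CPM in wild-type ovaries (SD, n = 3 each), at a log2 fold change of 0.18 ± 0.09 (SE, adjusted p = 0.231) and an interval of 2 SE between 101% and 127%. None of the 13 alternatives called it, with adjusted p between 0.149 and 0.472, and without wild-type replicate 3 the log2 value was 0.21 ± 0.09 (adjusted p = 0.149). Acvr2a shares 446 exonic bases with Orc4 on the opposite strand in the GENCODE M21 annotation. Whether strand was used in counting is not stated in the labels, so reads of that stretch cannot be assigned with certainty. The balance of the paralogs, as the log2 ratio of Acvr2a over Acvr2b in counts of the same library, averaged -0.005 ± 0.062 in Rnf111+/- libraries and 0.16 ± 0.23 in wild-type libraries (SD, n = 3 each). That difference of -0.16 did not exceed the replicate spread (exact two-sided permutation test p = 0.3; adjusted over 11 ratios and shares, p = 0.412). Leaving out wild-type replicate 3 gave -0.05, and leaving out wild-type replicate 1 gave -0.28.

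Tgfbr2, the receptor that TGF-beta binds first, had 97.5, 94.7 and 105 CPM in Rnf111+/- replicates 1, 2 and 3, against 98.2, 111 and 137 CPM in wild-type replicates 1, 2 and 3. The groups overlapped, and wild-type replicate 3 was the highest library. The means were 99.2 ± 5.57 CPM in Rnf111+/- ovaries and 116 ± 19.9 CPM in wild-type ovaries (SD, n = 3 each), with a log2 fold change of -0.22 ± 0.12 (SE, adjusted p = 0.29). Without wild-type replicate 3 it was -0.07 ± 0.08 (adjusted p = 0.615). The interval of 2 SE with all libraries held the Rnf111+/- level between 72.8% and 101% of the wild-type level. Where 5.74% of all tested genes were called lower and 3.9% higher, the stromal markers were counted too. Of 8 stromal markers, 5 fell (2 without Rnf111+/- replicate 1 or 2, and 3 without wild-type replicate 1) and none rose, their summed level being 2088 to 2458 CPM in Rnf111+/- libraries and 3391 to 3977 CPM in wild-type libraries, with none at 0. Their part in the Tgfbr2 values was not tested.

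Amhr2, the gene of the AMH receptor, had 202, 194 and 179.7 CPM in Rnf111+/- replicates 1, 2 and 3, against 186, 186 and 179.5 CPM in wild-type replicates 1, 2 and 3. The wild-type values lay within or beside the Rnf111+/- range, and the means were 192 ± 11.3 CPM in Rnf111+/- ovaries and 184 ± 3.70 CPM in wild-type ovaries (SD, n = 3 each). The log2 fold change was 0.06 ± 0.07 (SE, adjusted p = 0.615), and 0.06 ± 0.07 without wild-type replicate 3 (adjusted p = 0.645). The interval of 2 SE, between 95.1% and 115% of the wild-type level, was the narrowest of the 7 genes on the log2 scale. The gene of its ligand, Amh, had 555, 295 and 297 CPM in Rnf111+/- replicates 1, 2 and 3, against 418, 450.4 and 264 CPM in wild-type replicates 1, 2 and 3 (log2 0.02 ± 0.32 SE, adjusted p = 0.981). The log2 ratio of Amhr2 over Amh averaged -0.93 ± 0.46 in Rnf111+/- libraries and -1.0 ± 0.39 in wild-type libraries (exact two-sided permutation test p = 1), a difference of 0.07, or 0.29 without wild-type replicate 3. Amhr2 was thus steadier between mice than Amh, with a coefficient of variation of 5.86% among Rnf111+/- libraries and 2.01% among wild-type libraries, while that of Amh was 39% among Rnf111+/- libraries and 26.5% among wild-type libraries. It was also steady where the summed granulosa markers differed widely between libraries.

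Of the coreceptors, Tgfbr3 had 138, 123 and 135 CPM in Rnf111+/- replicates 1, 2 and 3, against 139, 128 and 155 CPM in wild-type replicates 1, 2 and 3. The groups overlapped, and the means were 132 ± 8.11 CPM in Rnf111+/- ovaries and 141 ± 13.4 CPM in wild-type ovaries (SD, n = 3 each). The log2 fold change was -0.09 ± 0.09 (SE, adjusted p = 0.548), with an interval of 2 SE between 83.0% and 106%, and was -0.01 ± 0.08 without wild-type replicate 3 (adjusted p = 0.944). Set against Inha, the inhibin alpha subunit gene, Tgfbr3 had a log2 ratio of -4.48 ± 0.34 in Rnf111+/- libraries and -3.78 ± 0.77 in wild-type libraries (exact two-sided permutation test p = 0.2; adjusted p = 0.314). The difference of -0.70 was -0.25 without wild-type replicate 3 and between -0.92 and -0.51 without any 1 other library. The Rnf111+/- libraries lay between -4.86 and -4.23, and wild-type replicate 3, at -2.89, lay well above wild-type replicates 1 and 2, at -4.22 and -4.23. Inha had 2524 to 3563 CPM in Rnf111+/- libraries, against 2592, 2404 and 1147 CPM in wild-type replicates 1, 2 and 3, and did not pass (log2 0.53 ± 0.32 SE, adjusted p = 0.367).

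Eng had 93.5, 95.1 and 109 CPM in Rnf111+/- replicates 1, 2 and 3, against 94.9, 98.1 and 142 CPM in wild-type replicates 1, 2 and 3. Apart from wild-type replicate 3, the values of both genotypes lay within 93.5 to 109 CPM. The means were 99.2 ± 8.44 CPM in Rnf111+/- ovaries and 112 ± 26.0 CPM in wild-type ovaries (SD, n = 3 each), at a log2 fold change of -0.17 ± 0.16 (SE, adjusted p = 0.557) and an interval of 2 SE between 71.5% and 111%. Without wild-type replicate 3 the sign turned, to 0.05 ± 0.08 (adjusted p = 0.732). The summed level of 10 macrophage markers was 243 to 303 CPM in Rnf111+/- libraries, 401 CPM in that wild-type library, and 213 and 212 CPM in the other wild-type libraries, with none at 0 and their part in the Eng values not tested. In GENCODE M21 Eng shares 61 exonic bases with Fpgs on the opposite strand.

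Eng is a marker of endothelium. Of 18 endothelium markers, 7 fell in Rnf111+/- ovaries, 11 did not pass and none rose (median log2 -0.39). Of all tested genes, 5.74% were called lower and 3.9% higher. Among the markers that fell was Cdh5, the gene of VE-cadherin (-0.51 ± 0.10 SE, adjusted p = 0.0157). The summed level of the 18 markers, none of them at 0, was 562 to 627 CPM in Rnf111+/- libraries. In wild-type replicates 1, 2 and 3 it was 696, 734 and 857 CPM, so it was highest in the library where Eng was highest. The part of these markers in the Eng values was not tested. Without wild-type replicate 3, 6 of the 18 fell and 1 rose, in a fit that called 16.2% of all tested genes. With another library left out, 3, 0 and 1 fell without Rnf111+/- replicates 1, 2 and 3, and 2 and 1 without wild-type replicates 1 and 2. Set against the mean log2 level of these 18 genes, Eng stood at 1.81 ± 0.09 in Rnf111+/- libraries and 1.62 ± 0.18 in wild-type libraries (exact two-sided permutation test p = 0.2; adjusted p = 0.314), a difference of 0.19, or 0.29 without wild-type replicate 3. The Rnf111+/- libraries lay between 1.71 and 1.88, with wild-type replicate 3 among them at 1.83 and the other wild-type libraries below, at 1.54 and 1.51. Acvrl1, the type I receptor gene that works with endoglin, fell to 22.7 ± 2.28 CPM in Rnf111+/- ovaries, against 29.6 ± 0.392 CPM in wild-type ovaries (log2 -0.38 ± 0.10 SE, adjusted p = 0.0499), a call at the threshold that failed in 10 of 13 alternatives (adjusted p up to 0.195). The log2 ratio of Eng over Acvrl1 averaged 2.12 ± 0.07 in Rnf111+/- libraries and 1.89 ± 0.30 in wild-type libraries (exact two-sided permutation test p = 0.4; adjusted p = 0.489). That difference of 0.23 became 0.41 when wild-type replicate 3 was left out, and 0.13 when wild-type replicate 1 was.

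**Figure D3:**
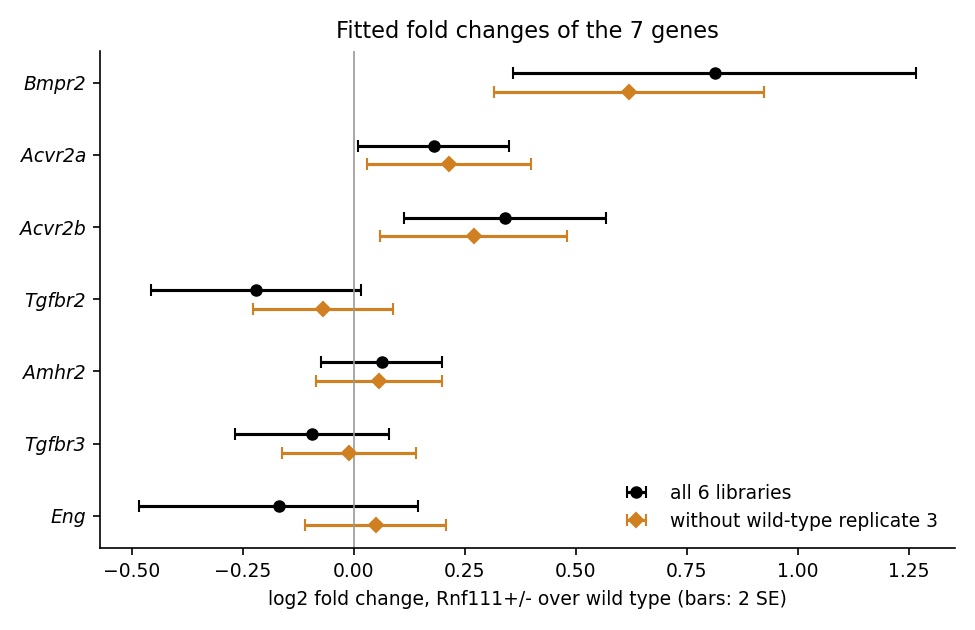
Log2 fold change (horizontal axis, Rnf111+/- over wild type) of each of the 7 genes with all 6 libraries (circles) and without wild-type replicate 3 (diamonds), with bars of 2 SE. Without that library Bmpr2 is at 0.62, Tgfbr2 at -0.07, Tgfbr3 at -0.01 and Eng at 0.05.

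To compare levels between genes, CPM were divided by kilobases of exon, with exon models of GENCODE M21 (build GRCm38), since long transcripts collect more reads. On that scale Amhr2 was the most abundant of the 7 in both genotypes, at 95.8 ± 5.61 CPM per kilobase in Rnf111+/- ovaries and 91.7 ± 1.85 in wild-type ovaries (SD, n = 3 each). In Rnf111+/- ovaries the order went on with Bmpr2 (40.4 ± 7.56 CPM per kilobase), Eng (24.5 ± 2.09), Tgfbr3 (20.1 ± 1.24), Tgfbr2 (12.1 ± 0.681), Acvr2b (8.71 ± 0.760) and Acvr2a (5.99 ± 0.277), and no neighbours in that order overlapped over the 3 libraries. In wild-type ovaries the ranges of Eng (27.6 ± 6.43 CPM per kilobase), Bmpr2 (23.0 ± 6.01) and Tgfbr3 (21.5 ± 2.05) overlapped. Within each wild-type library Eng lay above Tgfbr3, at 23.4 against 21.3, 24.2 against 19.6 and 35.0 against 23.6 in replicates 1, 2 and 3. Bmpr2, at 26.3, 26.7 and 16.1, lay above both in replicates 1 and 2 and below both in replicate 3, so its place was not resolved. Tgfbr2 (14.1 ± 2.43) lay below Eng and Tgfbr3 but overlapped Bmpr2. In wild-type replicate 3 Tgfbr2 had 16.8 and Bmpr2 16.1 CPM per kilobase. Acvr2b (6.88 ± 0.794) and Acvr2a (5.29 ± 0.224) lay below all of these. The place of Bmpr2 depends on the length used, because its exons span 17983 bases, of which 3114 are coding, while those of Amhr2 span 2005, of which 1704 are coding. Per kilobase of coding sequence Bmpr2 had the highest mean, at 233 ± 43.7 CPM in Rnf111+/- ovaries and 133 ± 34.7 CPM in wild-type ovaries, against 113 ± 6.61 CPM and 108 ± 2.17 CPM for Amhr2 in Rnf111+/- and wild-type ovaries. On that scale Bmpr2 lay above Amhr2 in every Rnf111+/- library, while the wild-type values overlapped, with Bmpr2 at 92.9 and Amhr2 at 105 CPM in wild-type replicate 3, so their wild-type order was not resolved.

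Within a library, the share of each type II receptor in the sum of all 5, per kilobase of exon, does not depend on library scaling. The Bmpr2 share was 20.5, 27.7 and 25.9% in Rnf111+/- replicates 1, 2 and 3, against 18.3, 18.4 and 12.0% in wild-type replicates 1, 2 and 3. All Rnf111+/- libraries were above all wild-type libraries, by 8.50 percentage points on average. The shares of Amhr2 (58.8 ± 3.93% in Rnf111+/- libraries and 65.1 ± 1.59% in wild-type libraries) and Tgfbr2 (7.46 ± 0.713% in Rnf111+/- libraries and 10.1 ± 2.18% in wild-type libraries) were lower in every Rnf111+/- library. For each of these 3 shares the exact two-sided permutation test gave p = 0.1, the smallest that 3 against 3 libraries allow, and p = 0.275 adjusted over 11 ratios and shares, so this design cannot pass a threshold of 0.05. Since shares sum to 100%, a larger share of 1 gene lowers the others. The shares of Acvr2b (5.34 ± 0.240% in Rnf111+/- libraries and 4.87 ± 0.408% in wild-type libraries) and Acvr2a (3.67 ± 0.107% in Rnf111+/- libraries and 3.76 ± 0.297% in wild-type libraries) overlapped. Without wild-type replicate 3 the differences were 6.40 percentage points for Bmpr2, -5.37 for Amhr2, -1.40 for Tgfbr2 (against -2.62 with all libraries), 0.301 for Acvr2b (against 0.468) and 0.078 for Acvr2a (against -0.0838). The Acvr2a share depended on the scaling. It was 3.15 ± 0.25% in Rnf111+/- libraries and 3.95 ± 0.652% in wild-type libraries with raw counts, and 4.98 ± 0.256% in Rnf111+/- libraries and 5.74 ± 0.667% in wild-type libraries with coding length, lower in every Rnf111+/- library under both (exact two-sided permutation test p = 0.1 for each). Without length scaling the Bmpr2 share was 66.6 ± 4.39% in Rnf111+/- libraries and 53.1 ± 8.06% in wild-type libraries.

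**Figure D4:**
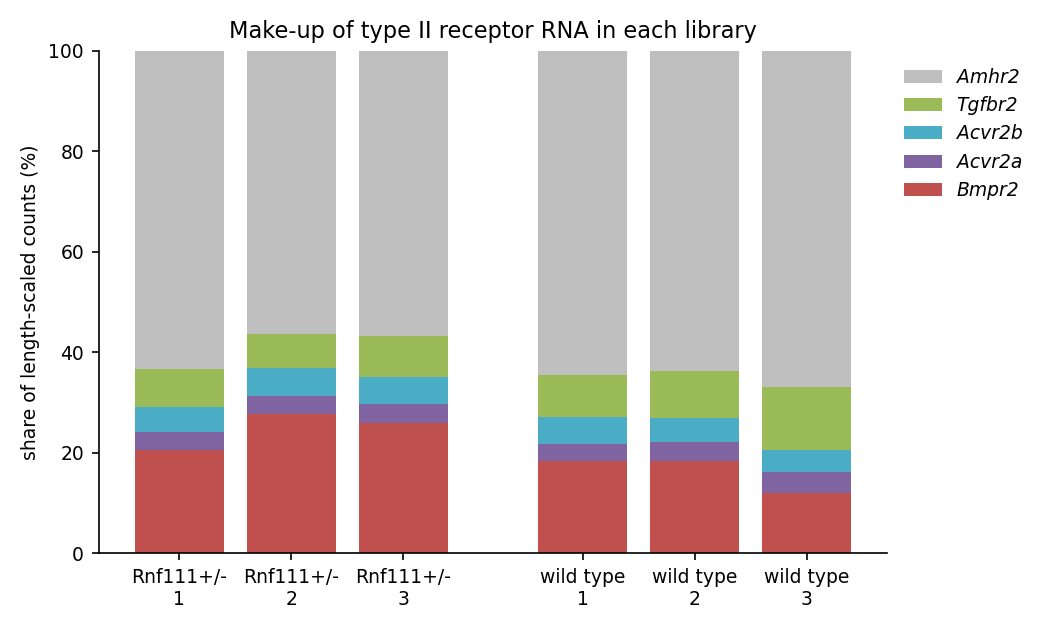
Share of each of the 5 type II receptor genes (stacked bars, %, summing to 100) in their counts per kilobase of exon, for each Rnf111+/- and wild-type library. The Bmpr2 part is 20.5 to 27.7% in Rnf111+/- libraries and 12.0 to 18.4% in wild-type libraries.

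For each of the 7, the genes of at least 10 CPM with the most similar profile were listed by Pearson's r of log2 CPM over the 6 libraries, as a description among 10625 genes. Because these r values span both genotypes and include wild-type replicate 3, they share the library effects described above. They are also the highest of 10625 over only 6 libraries, so high values can arise from that selection alone. No test was made of them, and they do not show that the genes are regulated together. Bmpr2 was closest to Dock4 (r = 0.9966), Rif1 (0.9963) and Rnf34 (0.9951). Dock4 had 69.1, 95.9 and 81.8 CPM in Rnf111+/- replicates 1, 2 and 3, against 57.0, 53.6 and 36.0 CPM in wild-type replicates 1, 2 and 3. Acvr2b was closest to Ptbp3 (0.9969), Fam3c (0.9967) and H1f10 (0.9944), and Acvr2a to 2700081O15Rik (0.9957), Zcchc7 (0.9915) and Tcp11l1 (0.9911). Eng was closest to Tpm1 (0.9964) and Cmpk2 (0.9963). Tpm1 had 436, 431.2 and 478.5 CPM in Rnf111+/- replicates 1, 2 and 3, against 436.7, 442.3 and 599.1 CPM in wild-type replicates 1, 2 and 3, so wild-type replicate 3 stood highest for Tpm1 as it did for Eng. Tgfbr2 was closest to Lgals7 (0.9938), Uprt (0.9922) and Mcts1 (0.992), Tgfbr3 to Retreg1 (0.9948), Fitm2 (0.9813) and Lrrc8e (0.978), and Amhr2, with the lowest values, to Tmem214 (0.9807), Rbsn (0.9746) and Eif2ak3 (0.9739).

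The type I partners of these receptors were counted next. For comparison with each count below, edgeR called 3.9% of all tested genes higher and 5.74% lower. Of 7 type I receptor genes, 2 fell and none rose: Acvrl1 and Acvr1, the gene of the BMP receptor ALK2, which fell to 47.5 ± 2.58 CPM in Rnf111+/- ovaries, against 75.5 ± 13.9 CPM in wild-type ovaries (log2 -0.67 ± 0.13 SE, adjusted p = 0.0152). Acvr1 was not called when any 1 Rnf111+/- library was left out (adjusted p up to 0.0804). Bmpr1b, the type I partner of BMPR2 in granulosa cells for BMP15, had 184, 238 and 208 CPM in Rnf111+/- replicates 1, 2 and 3, against 107, 106 and 48.8 CPM in wild-type replicates 1, 2 and 3. Like Bmpr2, it was lowest in wild-type replicate 3 and highest in Rnf111+/- replicate 2, and it missed the threshold (log2 1.27 ± 0.31 SE, adjusted p = 0.0602) and passed in 4 of 13 alternatives: without wild-type replicate 3 (0.99, adjusted p = 0.000162), with DESeq2 (1.28, adjusted p = 0.00615), with limma-voom (1.35, adjusted p = 0.0231) and with a stricter low-count filter (1.28, adjusted p = 0.0441). In those 4 the type I receptors had 1 rise. The log2 ratio of Bmpr2 over Bmpr1b was 1.78 ± 0.10 in Rnf111+/- libraries and 2.30 ± 0.23 in wild-type libraries (SD, n = 3 each), lower in every Rnf111+/- library (exact two-sided permutation test p = 0.1; adjusted p = 0.275). The difference was -0.51, and -0.38 without wild-type replicate 3.

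Other coreceptors and decoys had 1 rise and 1 fall among 14 (13 tested): Tdgf1, the gene of the Nodal coreceptor Cripto, rose (log2 1.25 ± 0.31 SE, adjusted p = 0.0403) and Cd109, which binds TGF-beta, fell (-1.03 ± 0.21 SE, adjusted p = 0.0216). Tdgf1 had 5.91 ± 0.953 CPM in Rnf111+/- ovaries, against 2.49 ± 0.940 CPM in wild-type ovaries, and Cd109 had 3.85 ± 0.572 CPM in Rnf111+/- ovaries, against 7.89 ± 1.71 CPM in wild-type ovaries (SD, n = 3 each). Tdgf1 was called in 8 of 13 alternatives and Cd109 in 11 of 13. Of 26 ligand genes (18 tested), 3 rose and 1 fell (Gdf10). The rises were those of Bmp3 and of the oocyte ligands of BMPR2, Gdf9 (0.63 ± 0.10 SE, adjusted p = 0.00707) and Bmp15 (0.54 ± 0.13 SE, adjusted p = 0.0356). With single libraries removed, Bmp15 was not called in 4 of 6 fits (adjusted p up to 0.144) and Gdf9 was called in all 6. Of 10 oocyte markers, 5 rose (2, 1 and 2 without Rnf111+/- replicate 1, Rnf111+/- replicate 2 and wild-type replicate 2) and none fell, with a summed level of 177 to 251 CPM in Rnf111+/- libraries and 129.6 to 149 CPM in wild-type libraries, none at 0, and their part in the values of Gdf9 and Bmp15 was not tested.

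Of 10 genes that handle receptors inside the cell, Zfyve9, the gene of the SMAD anchor SARA, rose (log2 0.33 ± 0.08 SE, adjusted p = 0.0308), and Fkbp1a, the gene of FKBP12, which holds type I receptors inactive, fell to 249 ± 10.4 CPM in Rnf111+/- ovaries, against 335 ± 8.62 CPM in wild-type ovaries (-0.43 ± 0.07 SE, adjusted p = 0.00645). The call of Fkbp1a held in all 13 alternatives (adjusted p up to 0.0471), and that of Zfyve9 in 8 of them. Downstream of the receptors, 2 of 8 SMAD genes rose (Smad3, 0.40 ± 0.08 SE, and Smad7, 0.44 ± 0.11 SE, adjusted p = 0.0169 and 0.0398) and none fell. Among 14 secreted antagonists, which keep ligands from these receptors, 2 rose (Grem1 and Chrdl1) and 2 fell (Chrd and Bmper), Grem1, the gene of the BMP antagonist gremlin, by 5.46 ± 0.41 (SE, adjusted p = 0.000589) on the log2 scale. Of 12 SMAD target genes, 2 rose (Ccn2 and Smad7) and 3 fell, among them Tgfbi and Id2, the last with a log2 fold change of -1.49 ± 0.10 (SE, adjusted p = 0.00015). Without wild-type replicate 3 these counts were 1 rise and 2 falls for type I receptors, 2 and 1 for other coreceptors, 7 and 1 for ligands, 2 and 1 for receptor handling, 2 and 0 for SMADs, 3 and 3 for antagonists and 3 and 3 for targets. That fit called 16.2% of all tested genes, against 9.64% with all libraries. The counts also depended on other single libraries. Falls of type I receptors numbered 0 without any 1 Rnf111+/- library and 1 without wild-type replicate 1 or 2. Rises of ligands numbered 1 without Rnf111+/- replicate 2 or 3 or wild-type replicate 2, and rises of SMADs 0 without Rnf111+/- replicate 2 or wild-type replicate 1 and 1 without Rnf111+/- replicate 3 or wild-type replicate 2. Falls of antagonists numbered 0 without Rnf111+/- replicate 3 or wild-type replicate 1 or 2 and 1 without Rnf111+/- replicate 1 or 2. Rises of target genes numbered 0 or 1 without any 1 library other than wild-type replicate 3, and falls 1 without Rnf111+/- replicate 2 or 3. The single rise or fall counted for the other coreceptors, receptor handling and ligands was lost in at least 1 of these fits, except the fall of Fkbp1a.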

How the data were processed

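RNA of 6 ovaries (3 Rnf111+/-, 3 wild type) was extracted with TRIzol and made into libraries with a VAHTS Universal V6 kit, per the labels' protocols. The authors deposited whole-number read counts per gene symbol, 1 column per mouse; 0 columns lacked a sample and 0 rows named no gene. The submitters' processing notes name fastp 0.20.1, HISAT2 2.1.0, HTSeq 0.11.2, DESeq2 1.38.3 and build GRCm39; their roles, the annotation and the use of strand are not given in these sources.

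Counts were tested with edgeR 4.0.16 in R 4.3.3 (filterByExpr with minimum count 10 and minimum total 15, TMM, robust two-sided quasi-likelihood test, genotype as the only term), with Benjamini-Hochberg adjustment over 16841 genes. A gene was called at an adjusted p under 0.05. Every adjusted p of a gene is from that fit, or, where an alternative is named beside it, from the same edgeR test refitted with that change and adjusted over its own tested genes, unless another tool is named. The SE was taken as |log2 fold change| over the root of the F statistic. Log2 CPM used a prior count of 2. Ratios and shares were tested by exact two-sided permutation of the 6 libraries. Alternatives were 2 other scalings, 2 other filters, DESeq2 1.42.0, limma-voom (limma 3.58.1), a replicate block and leaving out each library. Library totals lay between 38261449 and 39474515, so 3 counts correspond to 0.076 to 0.0784 CPM. Counting error, taken from the mean count of each group, was below 3.1% for every gene of the 7 and covers counting only. For a single library with fewer counts it can be larger. No pair of libraries was a duplicate (smallest chi-square per degree of freedom 12.4). The fit was tested on simulated data.

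The members and the lists were chosen with earlier results of these data known. Genes outside the 7 were named by rule: up to 4 called genes of smallest p per pathway list, the partner genes Amh, Inha, Acvrl1 and Bmpr1b, and up to 3 genes of the most similar profile per member; some genes that these rules name are not reported here. Cdh5, Ovgp1, Tppp3 and the 10 granulosa markers were named after their values were seen. Sequences are from RefSeq on GRCm38.p6 and lengths from GENCODE M21; no coordinates were converted to GRCm39.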

Additional observations from a re-analysis of the deposited data

How the results depend on the processing

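Of the 7 genes, 6 were called under none of the 13 alternatives; Bmpr2 was called under 3, so the count of genes called higher was 1 with DESeq2 and 1 with limma-voom and ranged between 0 and 1 over the fits that left out 1 library (1 without wild-type replicate 3). The log2 fold change of Bmpr2 was 0.82 with DESeq2 and 0.83 with limma-voom, and between 0.62 and 0.95 with 1 library left out. Eng reversed without wild-type replicate 3 (log2 0.049; range -0.264 to 0.049). Rnf111 missed the threshold with upper quartile scaling (log2 -0.24, adjusted p = 0.0602), with no low-count filter (-0.27, adjusted p = 0.0762) and with the replicate block (-0.27, adjusted p = 0.0653), and lay between -0.27 and -0.26 with 1 library left out. Over all genes, 657 were called higher and 966 lower; DESeq2 called 1125 higher, and with 1 library left out the counts lay between 224 and 1273 higher and between 297 and 1522 lower, the highest without wild-type replicate 3. The cause of these shifts was not tested.

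Among the shares, Acvr2b reversed with raw counts (-0.354 percentage points) and with coding length (-0.124, an alternative chosen after seeing the data), and Acvr2a without wild-type replicate 3 (0.078; range -0.213 to 0.078). The difference in the Acvr2a share was -0.80 with raw counts and -0.759 with coding length, against -0.0838 per kilobase of exon. With 1 library left out, that of Tgfbr2 lay between -3.50 and -1.40. The log2 ratio of Amhr2 over Amh, left out by library after seeing the data, lay between -0.092 and 0.335 and was below 0 in 4 of 6 fits (-0.092, -0.031, -0.013 and -0.069). Amh itself, between -0.348 and 0.185 with 1 library left out, turned below 0 with limma-voom (-0.0088), the replicate block (-0.0072), without Rnf111+/- replicate 1 (-0.348) and without wild-type replicate 3 (-0.172).

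With the replicate number as a block, 678 genes were called higher and 948 lower, and the log2 fold change of Bmpr2 was 0.83 (adjusted p = 0.0882). Deviations from the group means of same-numbered libraries correlated at 0.012, 0.0057 and 0.1 across genes. Libraries of unlike number gave values between -0.0713 and 0.0593. With 3 libraries per group these values cannot decide whether the numbers pair the libraries.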
